A study of Homo sapiens with 7 samples.

Results

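A set of 9 genes was followed out of 19970 protein-coding genes: the transcription factor genes ATF4, ATF5, ATF3, DDIT3 (which encodes CHOP), CEBPB and CEBPG, and the stress-response genes TRIB3, NUPR1 and CHAC1. They were chosen by name, as regulators and feedback genes of the ATF4 and CHOP branch of the stress response. No cut on their values was used, but earlier results of these data were known. The regions counted for a gene were all open-chromatin regions that overlapped its body or the 50 kb on either side. Merged over the libraries, these windows held 71 of 62507 regions.

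Accessible DNA was tagged with Tn5 transposase and sequenced (bulk ATAC-seq) in LUHMES cells, an immortalised human mesencephalic line that is differentiated into neurons. All 7 libraries carried the labels wild type, mid brain and dopaminergic neurons, and all came from this single line after 6 days of differentiation in medium with dbcAMP, GDNF and tetracycline. The 4 stressed libraries (differentiations 6, 7, 8 and 9) were exposed for 8 h to 25 µM antimycin A and 10 µM oligomycin, which block respiratory complex III and the ATP synthase. The 3 vehicle libraries (differentiations 6, 7 and 8) received DMSO.

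When translation initiation is slowed by phosphorylation of eIF2α, translation of ATF4 rises, and ATF4 then acts as a dimer with other bZIP proteins, among them C/EBPγ, C/EBPβ and CHOP. These dimers bind composite C/EBP-ATF sites in genes of amino acid supply and in genes that feed back on the response. In cells with damaged mitochondria the signal is known to run through the protease OMA1, the protein DELE1 and the eIF2α kinase HRI.

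Each deposited list gives a fold enrichment for each region. Regions were ranked by it within their own library, and lists were compared over their 32828 strongest regions, the length of the shortest list. The rank value of a gene is log2(32828 / rank) of the strongest region within 1000 bp of either gene end, and is 0 where there is none. A difference of 1 in rank value is a 2-fold difference in rank. The lists held 32828 to 248900 regions. The recovered background per position, a measure of relative depth, was 0.816 to 5.99 fragments in the stressed libraries and 0.492 to 1.43 in the vehicle libraries. The 3 longest lists, stressed 6, stressed 7 and vehicle 8, held 159902 regions or more, and the other four 55533 or fewer. Genes with a gene-end region numbered 12080 to 12976 in the stressed libraries, more than the 10773 to 11769 of the vehicle libraries, and over the 12646 genes tested the median difference in rank value was 0.28, with 71.2% of genes above 0. In bulk ATAC-seq, opening in more cells and wider opening in each cell cannot be told apart. Of 12 pan-neuronal genes, 11 had a gene-end region in each stressed library, against 10.3 ± 0.577 per vehicle library (SD, n = 3). Of 14 dopaminergic markers 7 had one in each stressed library, among them NR4A2, PITX3 and EN1, against 6.67 ± 0.577 per vehicle library (SD, n = 3). TH, DDC, SLC18A2, LMX1B and ALDH1A1 had none in the 32828 strongest regions of any library. LMX1A and FOXA2 each had one in 1 vehicle library and in 0 stressed libraries. Glial markers came to 4.25 ± 1.71 of 12 per stressed library (SD, n = 4) and to 2.67 ± 2.08 per vehicle library (SD, n = 3). Mesenchymal and endothelial markers numbered 4.75 ± 0.5 of 12 and 2.33 ± 1.15. PDGFRB was in 4 stressed and 0 vehicle lists, COL1A1 in 3 and 0, PDGFRA and PRRX1 in 4 and 2 and TWIST1 in 4 and 3, while the other seven, COL3A1, PECAM1 and VWF among them, were in none of the equal-length lists. Progenitor and proliferation genes numbered 8.5 ± 0.577 of 10 and 6.33 ± 2.31. The part of these differences in the results below was not tested.

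Sequence windows were taken from RefSeq promoters on GRCh38.p14, which list 250 bases before to 50 bases after each annotated start, and 8 of the 9 genes matched. They are shown for the genes whose regions cover, or in some libraries stop short of, a recognisable site. The motifs, 3 in all, were searched on both strands, and none of them shares bases with another in the windows of these genes: the composite C/EBP-ATF element TGATGNAA, the cAMP response element TGACGTCA and the AP-1 element TGACTCA. Over 22155 promoter windows they were found in 2.7%, 2.26% and 4.02%. Capitals mark the match. CHAC1 carried the composite element on the opposite strand, 209 to 202 bases before its start, at chr15:40953262-40953269. The 250 bases before that start (chr15:40953221-40953470, plus strand) were inside the region at the gene in part or whole in all 7 libraries, and the element itself was covered in all 7.
CHAC1: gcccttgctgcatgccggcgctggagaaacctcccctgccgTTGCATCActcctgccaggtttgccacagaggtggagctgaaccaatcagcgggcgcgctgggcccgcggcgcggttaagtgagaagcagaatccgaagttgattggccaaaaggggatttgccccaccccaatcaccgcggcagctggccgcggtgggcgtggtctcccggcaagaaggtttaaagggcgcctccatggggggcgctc
In CEBPG the composite element lay 42 to 35 bases before the later of its 2 listed starts. A stretch of 30 bases around it (chr19:33374060-33374089, plus strand) was covered in all 4 stressed libraries and in 2 of the 3 vehicle libraries.
CEBPG: cgcgcggcgtcTGATGCAAcctgccggcaa
DDIT3, read from the minus strand, had an AP-1 element 238 to 232 bases before its outer start, covered in all 7 libraries. The window is chr12:57520518-57520767.
DDIT3: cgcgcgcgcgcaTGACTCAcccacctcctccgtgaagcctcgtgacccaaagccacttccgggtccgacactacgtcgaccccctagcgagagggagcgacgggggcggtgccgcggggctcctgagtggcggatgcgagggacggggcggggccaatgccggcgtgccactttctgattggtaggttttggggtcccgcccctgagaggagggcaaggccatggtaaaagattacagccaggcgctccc
The 250 bases before the ATF4 start (chr22:39520309-39520558, plus strand) held none of the 3 motifs. They are shown because the ATF4 region of vehicle 6 and of vehicle 7 ended before this window began.
ATF4: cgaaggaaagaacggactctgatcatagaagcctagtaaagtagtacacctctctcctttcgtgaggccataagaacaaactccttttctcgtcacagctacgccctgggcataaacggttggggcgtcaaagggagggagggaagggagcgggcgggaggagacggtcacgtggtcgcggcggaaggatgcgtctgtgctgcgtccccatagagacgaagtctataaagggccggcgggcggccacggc
ATF3 had a composite element (TGATGGAA) 191 to 184 bases before its outer start and ATF5 an AP-1 element 188 to 182 bases before its own. No region covered the ATF3 site in any library, and the ATF5 site was covered in 2 stressed and 0 vehicle libraries. A match of letters is a description and not a bound site.

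TRIB3 had the largest difference of the 9 genes, and its stressed and vehicle libraries differed in where the most accessible point lay along the first part of the gene. CHAC1 was the only other member whose stressed libraries all ranked above all vehicle libraries. CEBPG, CEBPB, ATF4, DDIT3 and ATF5 had regions at their ends in both conditions with overlapping ranks. The ends of ATF3 and NUPR1 had no region in any library, although ATF3 held a strong region inside its body. No member was called by limma with Benjamini-Hochberg adjustment at 0.05 over all genes. That test called 0.0158% of the 12646 genes, which is 2 genes, with 1628 at an unadjusted p under 0.05.

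TRIB3 (chr20:380760-397559, plus strand) encodes a pseudokinase that is induced by ATF4 and CHOP and restrains the response. The strongest region at its end ranked 3984, 7585, 6386 and 3735 in stressed 6, 7, 8 and 9, and 31778, 11514 and 30360 in vehicle 6, 7 and 8. The rank values were 3.04, 2.11, 2.36 and 3.14 in the stressed libraries and 0.05, 1.51 and 0.11 in the vehicle libraries. All 4 stressed libraries stood above all 3 vehicle libraries, and vehicle 7 was the nearest to them. The means were 2.66 ± 0.50 (SD, n = 4) and 0.56 ± 0.83 (SD, n = 3), a difference of 2.11 with a standard error of 0.46, or 4.31-fold in rank. The limma p was 0.00013 and the adjusted p 0.109, and an exact two-sided permutation test gave 0.0286, the smallest p that the 35 assignments of 4 and 3 libraries allow. Only 26 of the 12646 genes had a larger difference. With gene-end windows of 500 bp the limma adjusted p was 0.0417, at a difference of 2.61, and with the summit required inside the window it was 0.0245, at 2.65. The first leaves out the vehicle 7 region, which began at 381749, and the second leaves out vehicle 7 and 8 by their summits. Those vehicle values were then 0, so both calls rest on where the regions lay. TRIB3 was called under no other of the 21 alternatives.

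The same region was also compared by its summit pileup, the number of fragments at its highest point, over the library's background, which does not depend on the rest of the list. TRIB3 had summit pileups of 95, 111, 16 and 29 fragments in stressed 6, 7, 8 and 9, and of 6, 10 and 22 in vehicle 6, 7 and 8. Divided by the background these were 43.6, 18.5, 19.6 and 19.4 in the stressed and 12.2, 16.4 and 15.3 in the vehicle libraries. The groups did not overlap on this scale, with stressed 6 far above the other three stressed libraries. All stressed libraries stood above all vehicle libraries on it for 0.0101% of the 9943 genes with a region in every deposited list, which is TRIB3 alone. The difference in log2 enrichment was 0.70 with a standard error of 0.42 (limma adjusted p = 0.739), and 1 gene had a larger one. The median over all genes was −0.38 on this scale and 6.99% of genes lay above 0. Relative to that shift in each library the TRIB3 difference was 1.10, with a limma adjusted p of 0.0555.

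The summit of the TRIB3 region lay 13 bp before the outer gene start in stressed 6 and 7, and 52 and 50 bp after it in stressed 8 and 9. In vehicle 6, 7 and 8 it lay 254, 1173 and 1321 bp after it. The outer start is the lower coordinate of the RefSeq gene (380760) and is not among the 3 TRIB3 starts of the promoter table (381295, 381306 and 381343). From the nearest of those, the summits lay 548, 548, 483 and 485 bp away in stressed 6, 7, 8 and 9 and 281, 590 and 738 bp away in vehicle 6, 7 and 8, so that vehicle 6 was then the nearest and the groups overlapped. Vehicle 7 had no region within 200 bp of the outer start, and its region ran from 381749 to 382267, inside the gene. Vehicle 8, whose region (380655 to 382465) covered the outer start as the stressed regions did, still had its highest point further in. The summit was nearer to the outer start in all stressed than in all vehicle libraries for 2.98% of 8309 genes, and for 2 members, TRIB3 and CEBPB. For TRIB3 this holds for the outer start only, and for CEBPB only with the wider of tied regions in stressed 8. The TRIB3 regions were 796 to 2568 bp wide in the stressed and 490 to 1811 bp in the vehicle libraries, which overlapped.

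CHAC1 (chr15:40953471-40956512, plus strand) encodes a glutathione-degrading enzyme downstream of ATF4, ATF3 and CHOP. Its region, which spans the promoter sequence printed above, ranked 4800, 3272, 5492 and 4549 in stressed 6, 7, 8 and 9, and 12102, 9534 and 10308 in vehicle 6, 7 and 8. The rank values were 2.77, 3.33, 2.58 and 2.85 against 1.44, 1.78 and 1.67. The groups did not overlap and each was narrow. The means were 2.88 ± 0.32 (SD, n = 4) and 1.63 ± 0.18 (SD, n = 3), a difference of 1.25 with a standard error of 0.42. The limma p was 0.00696 and the adjusted p 0.277. All stressed libraries stood above all vehicle libraries for 10.5% of the genes tested and below them for 1.75%. Among the 7 members with a region at an end the first held for 2, TRIB3 and CHAC1, and the second for 0.

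The separation of CHAC1 was not seen in its enrichment over background, which was 40.4, 26.9, 20.8 and 18.0 in stressed 6, 7, 8 and 9 and 22.4, 18.0 and 31.4 in vehicle 6, 7 and 8. Here the groups overlapped, with vehicle 8 above 3 stressed libraries, and the log2 difference was 0.12 (limma adjusted p = 0.888). That was still above 97.3% of genes, since enrichment was lower in the stressed libraries for most genes. The CHAC1 summits lay 129 to 241 bp before the start in the stressed and 133 to 137 bp before it in the vehicle libraries. In stressed 6 and stressed 8 they lay 241 and 235 bp before it, and in the other five libraries within 137 bp.

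**Figure D1:**
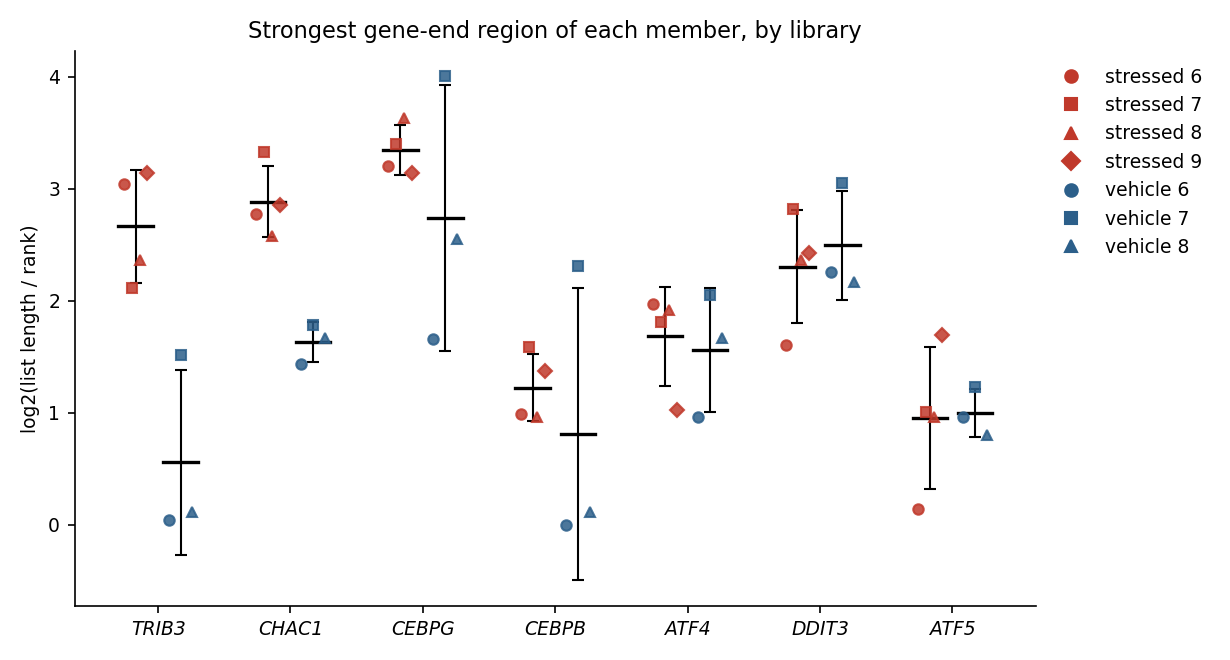
Rank value, log2(32828 / rank), of the strongest gene-end region for each of the 7 members that had one, by library; points are libraries, bars the mean and whiskers the SD (n = 4 stressed, n = 3 vehicle), and values cannot go below 0. The stressed points of TRIB3 and CHAC1 lie above all of their vehicle points, and those of the other five overlap.

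**Figure D2:**
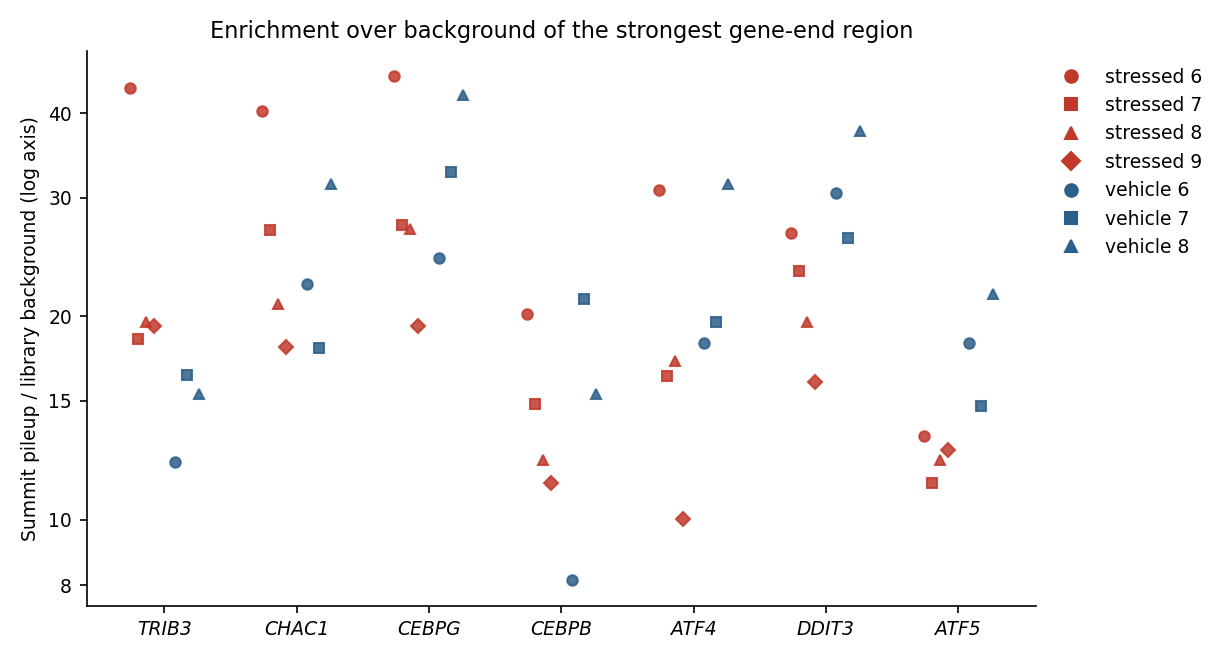
Summit pileup divided by the library background for the same regions, on a log axis, 1 point for each library. TRIB3 keeps its stressed points, 18.5 to 43.6, above its vehicle points, 12.2 to 16.4, and CHAC1 does not.

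CEBPG (chr19:33373709-33382686, plus strand), which encodes C/EBPγ, an ATF4 partner, had the strongest gene-end region of the 9 genes, with a mean rank value of 3.08 ± 0.77 over all libraries (SD, n = 7). The values were 3.20, 3.40, 3.63 and 3.14 in stressed 6, 7, 8 and 9, and 1.65, 4.01 and 2.55 in vehicle 6, 7 and 8. The stressed libraries lay close together and inside the range of the vehicle libraries, of which vehicle 7 was the highest of all. The difference was 0.61 with a standard error of 0.50 (limma adjusted p = 0.61), and leaving out single libraries moved it between 0.07 and 1.24. On the enrichment scale it was −0.19, again above the all-gene median.

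CEBPB (chr20:50190583-50192690, plus strand), which encodes C/EBPβ, a partner of both ATF4 and CHOP, had rank values of 0.99, 1.58, 0.96 and 1.37 in stressed 6, 7, 8 and 9. In vehicle 6 its region ranked 50296, outside the strongest 32828, and vehicle 7 and 8 had 2.31 and 0.11. The groups overlapped because vehicle 7 was above every stressed library. The difference was 0.42 with a standard error of 0.46 (limma adjusted p = 0.711). It was 0.01 without vehicle 6, 0.07 without vehicle 8 and 1.17 without vehicle 7. With gene-end windows of 500 bp it was 1.23, which is the stressed mean, since every vehicle value was then 0. CEBPB entered that fit through the stressed libraries alone, so the value is a description. The positions of the regions used differed as well. The summit lay 200, 203, 410 and 1136 bp after the outer start in stressed 6, 7, 8 and 9, and 1585, 1298 and 1294 bp after it in vehicle 6, 7 and 8. The vehicle regions were 215 to 579 bp wide and lay inside the gene, from 50191554 onward, while the stressed regions, 839 to 4753 bp wide, all reached the start. A weaker region (18 fragments, rank 39214) lay at the start in vehicle 8. In stressed 8 another gene-end region (50192952 to 50193142) was tied with the one used, at 10 fragments and rank 16864, and the wider was taken. The summit of the other, at 50193019, lay farther from the start than every vehicle summit. The vehicle 6 region held 4 fragments at its summit. The difference in position therefore rests on that choice and on low counts.

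**Figure D3:**
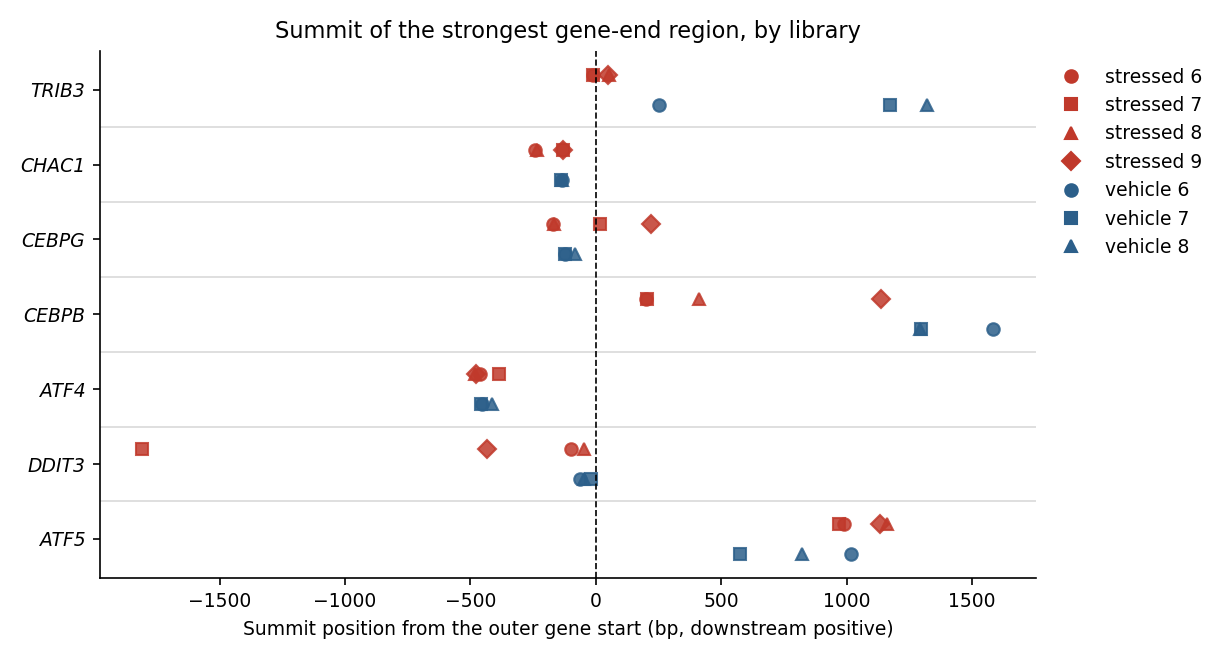
Summit of the strongest gene-end region relative to the outer gene start, in bp, with downstream positive; each point is a library. The TRIB3 and CEBPB summits of the stressed libraries lie nearer to the outer start than those of the vehicle libraries, which for TRIB3 does not hold for the later starts of the promoter table, and the summits of ATF4 lie together 384 to 481 bp upstream.

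ATF4 (chr22:39520559-39522686, plus strand), the central activator, had rank values of 1.97, 1.81, 1.92 and 1.03 in stressed 6, 7, 8 and 9 and of 0.96, 2.05 and 1.67 in vehicle 6, 7 and 8. The groups overlapped fully, with a difference of 0.12 and a standard error of 0.43 (limma adjusted p = 0.917). The summit stayed 384 to 481 bp upstream of the start in all 7 libraries. The width varied more. The ATF4 regions were 1782, 2062, 1546 and 1416 bp wide in stressed 6, 7, 8 and 9, and 247, 451 and 1655 bp in vehicle 6, 7 and 8. Vehicle 6 and 7 were the narrow ones, and vehicle 8, the deepest vehicle library, lay inside the stressed range. Relative to the median gene-end width of each library the log2 difference was 1.04 with a standard error of 0.41 (limma adjusted p = 0.691), and it was 0.48 without vehicle 6 and 1.52 without vehicle 8.

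DDIT3 (chr12:57516588-57520517, minus strand) encodes CHOP, which is induced by ATF4 and acts in cell death under lasting stress. Its rank values were 1.61, 2.82, 2.36 and 2.42 in stressed 6, 7, 8 and 9 and 2.26, 3.05 and 2.17 in vehicle 6, 7 and 8. They overlapped, with a difference of −0.19 and a standard error of 0.45 (limma adjusted p = 0.87). In stressed 7 and stressed 9 the region was 6975 and 4335 bp wide, against 1473 to 2231 bp in the other five libraries. In stressed 7 it ran on towards the neighbouring gene MBD6 and its summit lay 1808 bp upstream of the DDIT3 start, so its rank there does not describe the DDIT3 start alone. With the summit required inside the gene-end window the difference was −0.89 (limma adjusted p = 0.506). That rule sets stressed 7 to 0, although its region covered the DDIT3 start, so the value does not describe the start either.

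ATF5 (chr19:49928906-49933935, plus strand), a relative of ATF4 that is also linked to the mitochondrial unfolded protein response, had the lowest mean rank value over the 7 libraries among members with a gene-end region, although TRIB3 and CEBPB were lower in the vehicle libraries alone. Its rank values were 0.15, 1.01, 0.96 and 1.69 in stressed 6, 7, 8 and 9 and 0.96, 1.23 and 0.80 in vehicle 6, 7 and 8. They overlapped, with a difference of −0.04 and a standard error of 0.38 (limma adjusted p = 0.966). The summits lay 971 to 1162 bp after the outer start in the stressed and 576 to 1017 bp in the vehicle libraries. In stressed 8 a narrower region, with its summit at 49929239 and nearer to the outer start, was tied with the one used, at 10 fragments and rank 16864. Merged over libraries, the region at the ATF5 end also lay at ends of IL4I1 and NUP62. The ATF5 values therefore do not describe the ATF5 start alone. Its enrichment over background was 13.3, 11.3, 12.3 and 12.7 in stressed 6, 7, 8 and 9 and 18.3, 14.7 and 21.6 in vehicle 6, 7 and 8, the only member with all stressed values below all vehicle values. The share of all genes with that pattern is not given here. Enrichment was lower in the stressed libraries for most genes, with a median log2 difference of −0.38. The ATF5 difference, −0.54, was above that of 28.3% of genes.

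In order of mean rank value over all 7 libraries, CEBPG (3.08) was followed by DDIT3 (2.38), CHAC1 (2.35), TRIB3 (1.76), ATF4 (1.63), CEBPB (1.05) and ATF5 (0.97). Neighbours in this order differed by less than the larger of their SDs, which ran from 0.45 for ATF4 to 1.27 for TRIB3.

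The outer gene start itself was covered more often in stressed libraries. A region lay within 200 bp of it in all 4 stressed libraries for ATF4, ATF5, CEBPB, CEBPG, DDIT3, TRIB3 and CHAC1. Among the deposited vehicle lists it did so for CEBPG, DDIT3 and CHAC1 in 3, for TRIB3 in 2 (vehicle 6 and 8), and for ATF4, ATF5 and CEBPB in vehicle 8 only. A region at the start in 4 stressed and at most 1 vehicle list was found for 3.6% of 15812 genes with a known strand, and for 3 of 8 members. Vehicle 6 and vehicle 7 had the lowest backgrounds of all libraries, 0.492 and 0.611, and the fewest genes with a region at the start over all genes, 53.9% and 49.9% against 58.9% to 74.7% in the other five libraries. The part of this depth in the 3 members' pattern was not tested.

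Widths of the strongest gene-end regions were compared relative to the median gene-end width of each library for the 6 members with a region at an end in all 7 equal-length lists. All 6 had a positive log2 difference, with a median of 0.42 against −0.03 over 9282 genes, where 46.6% were positive. None was called by limma (0% of genes called, 623 at an unadjusted p under 0.05). In no member were all stressed regions relatively wider or narrower than all vehicle regions, which held for 2.8% and 3.66% of genes.

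**Figure D4:**
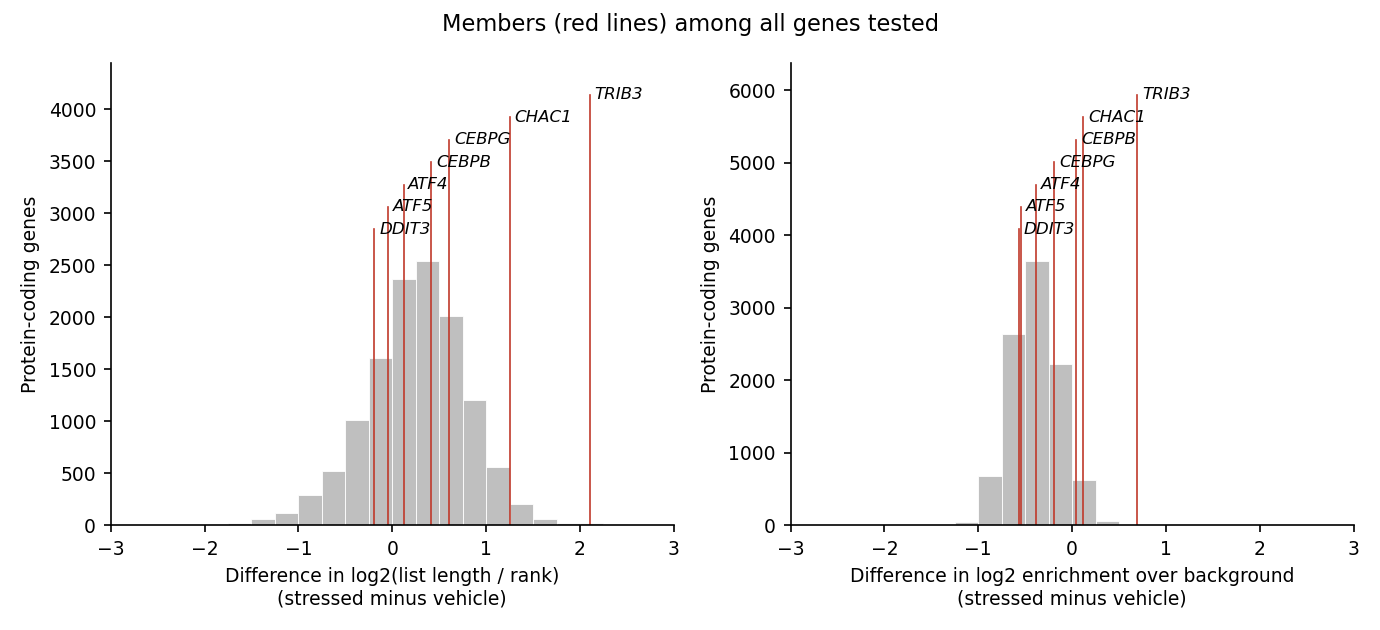
Differences between stressed and vehicle means (log2 scales) for all protein-coding genes tested (grey bars, number of genes in bins of 0.25) with the 7 members as red lines, by rank value (left, 12646 genes) and by enrichment over background (right, 9943 genes). TRIB3 lies in the upper tail of both, at 2.11 and 0.70, and ATF5 and DDIT3 lie in the lower part of both.

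ATF3 (chr1:212565407-212620777, plus strand) encodes a stress-induced partner and repressor in the same response, and is known to use more than 1 promoter. No region of any deposited list lay within 1000 bp of either end of the gene. Inside the body, a region at chr1:212606733-212610194, whose middle lay 43056 bp after the outer start, was present in all 7 libraries and was the strongest distal region of any of the 9 windows. It ranked 1387, 898, 1070 and 1312 in stressed 6, 7, 8 and 9 and 1768, 1298 and 1956 in vehicle 6, 7 and 8, with summit pileups of 135, 233, 28 and 39 and of 27, 23 and 92 fragments. The rank values were 4.56, 5.19, 4.94 and 4.65 against 4.22, 4.66 and 4.07, so vehicle 7 overlapped the stressed range. The difference was 0.52 with a standard error of 0.47 (limma adjusted p = 0.648 over 32442 regions). Neither of the 2 ATF3 starts of the promoter table, at 212565407 and 212615018, falls inside this region. Distal here means away from the outer gene ends, so a region at a start inside the gene also counts as distal. Whether this region holds a promoter was not tested. Closer to the outer start, a region at chr1:212566677-212567777 was among the strongest 32828 in stressed 7 and stressed 9 only.

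NUPR1 (chr16:28532708-28538974), which encodes a small stress-induced chromatin protein, had no region within its body or at its ends in any of the 7 deposited lists. The nearest region lay 10756 bp away in stressed 8 and 14903 bp away in the library where it was farthest. The window was not empty of signal, since regions at the ends of its neighbours were present in all 7 libraries. Its single distal region in the equal-length lists (chr16:28549730-28549943) had a rank value of 0.34 in stressed 8 and 0 elsewhere.

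Distal regions, away from the ends of all protein-coding genes, numbered 26, 25, 30 and 23 in the 9 windows in stressed 6, 7, 8 and 9, and 17, 23 and 25 in vehicle 6, 7 and 8. Vehicle 6 had the fewest, and the other vehicle libraries lay within the stressed range. In the deposited lists, whose length follows depth, the numbers were 40 to 116 in the stressed and 21 to 78 in the vehicle libraries. Regions at the members' own ends came to 9.5 ± 1.73 per stressed library (SD, n = 4) and to 7.33 ± 0.577 per vehicle library (SD, n = 3). Merged over libraries there were 43 distal regions, of which 5 were in all 7 libraries and 13 in a single library. The 22 of them tested had a median difference of 0.20, against 0.09 over all 32442 regions, and 15 were positive. None was called by limma, which called 0.0894% of all regions, 12 of them higher and 17 lower in stressed libraries, and 2 of the 22 had an unadjusted p under 0.05.

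Both of those were present in all stressed and no vehicle equal-length list, a pattern of 0.705% of all distal regions and of 2 of the 43 here. A region in the ATF5 window, 4686 bp upstream of the outer start within the bodies of IL4I1 and NUP62 (chr19:49923516-49924924), had rank values of 1.13, 1.15, 0.67 and 1.03 in stressed 6, 7, 8 and 9 and no region in any deposited vehicle list. Its summit pileups were 47, 73, 9 and 15 fragments, and its mean rank value was 1.00 ± 0.22 (SD, n = 4). The other lay in the CEBPG window within PEPD (chr19:33430086-33431023, 56845 bp from the outer start), with rank values of 0.89, 0.76, 0 and 0.84 in stressed 6, 7, 8 and 9. Its value in stressed 8 is 0 because it ranked 34040 among tied regions, and the deposited list of vehicle 8 held a weak region there (7 fragments, rank 141448). The mean rank value was 0.62 ± 0.42 (SD, n = 4). Both regions entered the fit through the stressed libraries alone, with every vehicle value at 0, so their differences are given as a description.

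All stressed libraries stood above all vehicle libraries in 5.22% of the distal regions tested in the series and in 3 of the 22 here, 2 of them in the ATF5 window. In addition to the upstream ATF5 region these were a region 9090 bp after the ATF5 start (chr19:49937262-49938731; 0.62, 0.76, 0.67 and 0.44 against 0, 0 and 0.36; named after its values were seen) and a region 46915 bp upstream of CHAC1 (chr15:40905686-40907427). The CHAC1 region had rank values of 2.05, 2.07, 1.92 and 1.53 in stressed 6, 7, 8 and 9 and of 0.70, 1.23 and 1.43 in vehicle 6, 7 and 8. The groups came close but did not overlap, with a difference of 0.77 and a standard error of 0.43 (limma adjusted p = 0.452).

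The strongest distal regions of the other windows overlapped between groups. Upstream of ATF4, within MGAT3 (chr22:39482286-39483771), the values were 0.68, 1.01, 1.22 and 2.56 in stressed 6, 7, 8 and 9 and 0, 0 and 1.43 in vehicle 6, 7 and 8. Upstream of CEBPB (chr20:50165552-50166537, 24539 bp from the start) they were 3.32, 2.09, 1.22 and 1.20 against 0.96, 1.78 and 2.00, highest in stressed 6. In the DDIT3 window, within KIF5A (chr12:57552641-57554244), they were 0.39, 1.09, 0.96 and 0.44 against 0.40, 1.23 and 1.00. In the CEBPG window, within PEPD (chr19:33410455-33411468), they were 0, 0.39, 0.34 and 0 against 0, 1.51 and 0.80, the only named distal region besides that of DDIT3 with a higher vehicle mean. The TRIB3 window held few distal regions, and the strongest, 7075 bp upstream of the start (chr20:373460-373910), was among the strongest 32828 in stressed 6 alone.

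**Figure D5:**
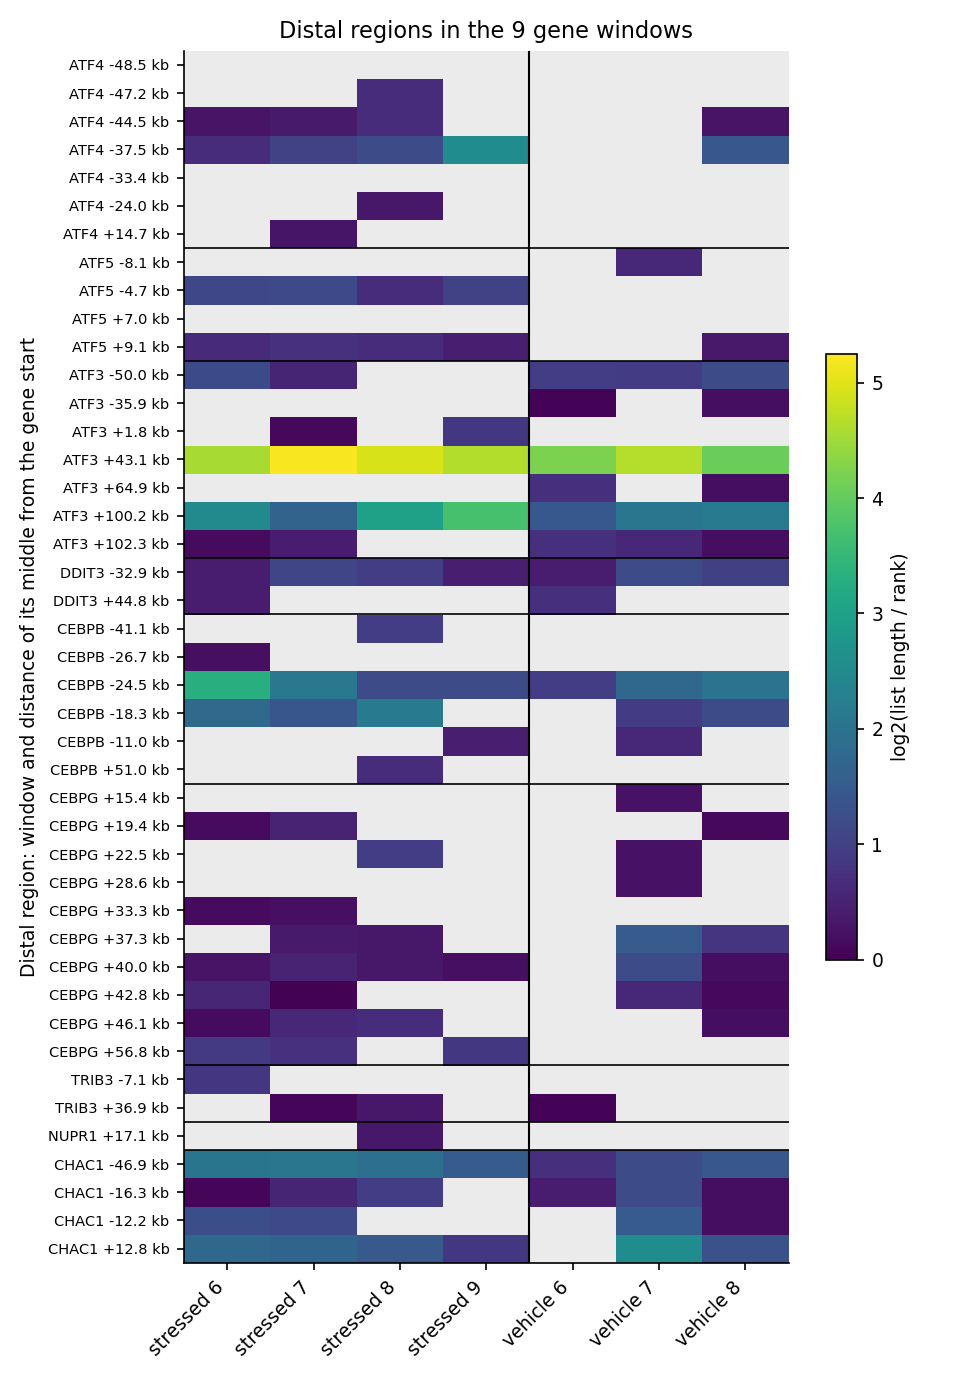
Rank value, log2(32828 / rank), of the 43 distal regions in the 9 windows (rows, with the distance of the region's middle from the outer gene start, or for NUPR1 from its lower coordinate) in each library (columns); grey is a value of 0. The ATF3 region at +43.1 kb is the strongest in every library, and the ATF5 region at −4.7 kb is coloured in the 4 stressed columns only.

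Other genes of the pathway were taken from 3 lists chosen with earlier results of these data known. A list of 11 genes upstream of ATF4 held eIF2α kinases, OMA1, DELE1, eIF2α itself, eIF2B subunits and regulatory subunits of the eIF2α phosphatase. All 11 were tested, none was called by limma and 2 had an unadjusted p under 0.05. The difference was positive for 8 of the 11, and the median was 0.34. Over all genes tested, 71.2% were positive, 1628 of 12646 had an unadjusted p under 0.05 and the median was 0.28. A list of 13 other genes named as bZIP or C/EBP proteins included CEBPZ, which despite its name encodes no bZIP protein. Of these 13 genes 11 were tested, none was called, 2 had an unadjusted p under 0.05 and 7 were positive, with a median of 0.52. Of 40 ATF4 and CHOP target genes 37 were tested, none was called, 13 had an unadjusted p under 0.05 and 31 were positive, with a median of 0.59. The targets SHMT2 (2.35), NIBAN1 (2.26) and SLC7A11 (2.13), named after their values were seen, had larger differences than the 2.11 of TRIB3. All stressed libraries stood above all vehicle libraries for 0%, 27.3% and 29.7% of the tested genes of these lists (0, 3 and 11 genes), beside 10.5% of all genes tested. These counts include JDP2 and STC2, which entered the fit through the stressed libraries alone, so that their separation followed from the filter. The share over all genes includes such genes too. The shares are a description.

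A gene-end region in all 4 stressed and no vehicle equal-length list was found for 0.576% of all genes and for 0 of the 9 members. On the pathway lists it was found for JDP2, which encodes a bZIP repressor related to ATF3 (1.14 ± 0.60 against 0), and for STC2, which encodes a secreted glycoprotein induced by ATF4 (1.25 ± 1.05 against 0; SD, n = 4). TNFRSF10B, which encodes the death receptor DR5, a CHOP target, had it in 3 stressed libraries (0.26 ± 0.26; SD, n = 4). The deposited list of 1 vehicle library held a region at each of these 3 genes. They too entered the fit through the stressed libraries alone, so these values are a description.

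The 5 genes whose rank values over the 7 libraries were most like those of TRIB3 were NCBP2 and its divergent neighbour NCBP2AS2, which share a region, AP3B2, MYO9A and CEBPA. The mean absolute difference from TRIB3 ran from 0.43 for NCBP2 to 0.51 for CEBPA. CEBPA had values of 2.55, 2.11, 1.92 and 2.42 in stressed 6, 7, 8 and 9 and of 1.21, 1.51 and 0.87 in vehicle 6, 7 and 8, which did not overlap (limma adjusted p = 0.305). All stressed libraries stood above all vehicle libraries for 10.5% of genes. These 5 genes were picked for their likeness to TRIB3, so the separation is a description.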

How the data were processed

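The 7 ATAC-seq libraries were analysed from their deposited peak lists. The submitters' processing notes name FastQC, Bowtie2, Picard and the build hg38, with no versions. Peaks were called with MACS2 separately for each library, per the file headers. Its settings, the Tn5 shift and duplicate handling were not given in the sources used here, and all bear on region width and number. The deposited lists give for each peak a fold enrichment at the summit (a ratio), a −log10 p and a −log10 q as the authors' peak caller made them. They also give the summit offset.

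Peaks outside chromosomes 1 to 22 and X, 29 to 54 in each library, were dropped. Peaks were ranked by fold enrichment within a library, with ties at their mean rank. Within a library the folds lie on a grid of (pileup + 1) / (background + 1). With a tolerance of 0.02 all of them gave whole pileups, which gave the background as a measure of relative depth. Total reads were not given in the sources used here. Where a summit holds 6 to 20 fragments, as in the shallow libraries, counting error is large, and no interval was computed.

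Gene ends and symbols came from RefSeq (GRCh38.p14, the assembly of hg38), and all 9 members matched. Strands came from the RefSeq promoter table, which holds no entry for NUPR1. The outer start is the outermost gene coordinate on the 5′ side, which for TRIB3 is not a start of that table. Rank values were fitted with limma 3.58.1 (trended empirical Bayes, R 4.3.3) on 4 stressed against 3 vehicle libraries without covariates. The fit took in all genes with a region in at least 3 of 7 equal-length lists, and likewise all merged regions, with Benjamini-Hochberg adjustment and calls at 0.05. The other steps used Python 3.11.15, pandas 2.3.3, numpy 2.4.6 and bedtools 2.31.1. The scripts were tested on simulated data. The labels call the differentiations independent batches of cells.

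The members, the gene lists and the tests were chosen with earlier results of these data known. All 9 members are named. Distal regions are named when present in all libraries of 1 treatment and none of the other, when the unadjusted limma p is under 0.05, or when strongest in their window. Genes of the 3 pathway lists are named when called, or when 3 or more stressed and 0 vehicle lists hold their end, or 2 or more vehicle and 0 stressed lists. SHMT2, NIBAN1 and SLC7A11 were named after their values were seen. The genes most like a member are named for the member with the largest difference. The alternatives were other ranks, list lengths, windows, filters, covariates, subsets of libraries and tests. Centred values and enrichment over background were added after seeing the data.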

Additional observations from a re-analysis of the deposited data

Results flagged for a closer look

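Among the 4 stressed libraries, 31 sets of values of the members were tested with Dixon's test for a library far from the others, and 4 were marked. Chance marks about 1 in 20 groups, a rate that does not apply to the TRIB3 and NUPR1 regions, where the other three values are all at the floor of 0. The gene-end rank value of ATF4 was 1.03 in stressed 9, below the 1.81 to 1.97 of the other stressed libraries. The distal CEBPG region at chr19:33430086-33431023 had a rank value of 0 in stressed 8, where it ranked 34040, against 0.76 to 0.89 in the other three. The distal TRIB3 region at chr20:373460-373910 had a rank value of 0.838 in stressed 6 and 0 in the others. The distal NUPR1 region at chr16:28549730-28549943 had a rank value of 0.336 in stressed 8 and 0 in the others.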

How the results depend on the processing

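TRIB3 and CHAC1 kept a positive gene-end difference under all 21 alternatives, from 0.70 to 2.65 for TRIB3 (limma adjusted p 0.0245 to 0.739) and from 0.12 to 1.35 for CHAC1 (0.259 to 0.888). Only TRIB3 was called, under 2 of them, both with vehicle values set to 0 as given above. Ranking by −log10 p gave the same ranks. The number of genes called at gene ends, 2, became 0 with lists of 16414 regions, with a −log10 q of at least 5, with genes present in at least 1 library, with log2 background as covariate, with the short lists only, on enrichment over background and by the exact permutation test, where no call can be reached. It became 1 with 500 bp windows or centred values, 5 with the summit in the window, and 0 to 11 with a library left out. The cause was not tested. ATF5 changed sign to 0.10 with lists of 16414 regions, 0.28 with 500 bp windows, 0.094 with the covariate and 0.23 with short lists only, and ran from −0.29 to 0.22 with a library left out. CEBPB changed to −0.20 with lists of 16414 regions and −0.21 with the stricter q. DDIT3 changed to 0.43 with 2500 bp windows, and ran from −0.36 to 0.089 with a library left out. ATF4 changed to −0.0097 with the covariate, −0.034 with short lists only, −0.14 when centred and −0.39 on enrichment, and ran from −0.18 to 0.37 with a library left out. CEBPG changed to −0.19 on enrichment.

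For widths, 0 to 103 genes were called with a library left out (103 without vehicle 8, 1 without stressed 8). ATF5 width changed to −0.30 with the covariate and −0.15 with short lists only. With a library left out it ran from −0.13 to 0.34, and CEBPG width from −0.040 to 0.56. The 29 merged regions called became 0 with lists of 16414 regions, the stricter q, presence in at least 1 library, the covariate, short lists only and the permutation test, 49 when centred, and 0 to 2 with a library left out. The CEBPB distal region changed to −0.21 with the covariate and −0.16 with short lists only, and ran from −0.078 to 0.63 with a library left out. The DDIT3 distal region ran from −0.39 to 0.022 with a library left out. In the lists as deposited the windows held 4.67 more gene-end and 35.1 more distal regions in stressed than in vehicle libraries. Members with a region at an end in all libraries, 6, became 3 with the summit in the window (CHAC1, CEBPG and ATF4) or the stricter q (CHAC1, CEBPG and DDIT3). With 500 bp windows, 1 member, CEBPB, had a region in all stressed and no vehicle equal-length list. The share of all genes at that window is not given here, so this is a description.

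Libraries with the same differentiation number did not deviate together (correlations of −0.11, 0.002 and −0.05). So few pairs, of unequal depth, cannot show whether the numbers pair the libraries, and the main fits left the numbers out. With the number as a replicate block, 2 genes and 6 merged regions were called, with none of the members or named regions among them, and the TRIB3 difference was 1.95 (limma adjusted p = 0.284).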
